A study of Drosophila melanogaster with 8 samples.

Results

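The Drosophila transcription factor Ribbon (Rib) was mapped on embryonic chromatin by ChIP-seq, and a list of highest-confidence regions was deposited beside 3 peak lists. Described here are the highest-confidence regions at gene ends, defined as regions whose midpoint lay within 500 bp of the start or the end of any protein-coding gene in the RefSeq table of genome Release 6. They numbered 612 of 2198 regions (27.8%, Wilson 95% interval 26.0 to 29.8%). The windows around gene ends took up 15.1% of the chromosome arms. The other 1306 regions lying in a gene body are called regions inside genes, and the remaining 280 are called regions between genes. The gene table carries no strand, so the start of a gene could not be told from its end, and both are called gene ends.

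Rib carries a BTB domain, through which proteins of this family bind one another, and is known for its part in the shaping of the embryonic salivary gland and trachea. Both are tubes made of secretory epithelium. Salivary gland cells grow without dividing after the organ is specified, which requires ribosome production, and the trachea deposits a chitin matrix in its lumen. The series title links the study to ribosomal protein gene transcription during the growth of secretory cells.

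Of the 8 samples, 5 were immunoprecipitates, 3 with the btl-GAL4 driver and 2 with the trh-GAL4 driver, and 3 were inputs. Each driver, named after a gene of the tracheal programme (breathless, an FGF receptor, and trachealess, a transcription factor), switches on a UAS transgene in the cells where it is active, so binding was that of a GAL4-driven protein in driver cells within chromatin of the whole embryo. Titles and genotypes name UAS-GFP in every sample, whereas the protocol names UAS-rib-GFP. The protocol's reading is used below, and if the titles were right no value would concern Rib. Embryo stages are given as 11 to 15 for each sample but as 11 to 16 by the protocol. Cross-linking was in 1.8% formaldehyde and the antibody was a goat polyclonal against GFP. The btl list (8693 regions) and the trh list (3210 regions) each joined replicates 1 and 2, and btl replicate 3 had a list of its own (10205 regions on the arms). Replicate 3 was made with another library kit and sequenced at another centre, with no sample that separates kit from centre. An immunoprecipitate from embryos lacking any GFP fusion was not analysed here, and peak lists cannot check the cell types in the chromatin.

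Every highest-confidence region was exactly an intersection of 1 region from each of the 3 lists, and all 2198 such intersections were in the list. The 3 regions a member came from are called its parent peaks. For each parent peak the authors' lists give a summit, a fold enrichment over background and a -log10 q, which grows with the significance of the enrichment. Where a parent had several summits, the strongest was used, and values quoted for a member are fold enrichments in the order btl, trh, replicate 3 unless stated otherwise. Since the lists pool or lack replicates and hold no reads, depth is unknown and no value below has a replicate error or a test. Intervals cover counting error only, and regions are not replicates of a condition. Percentiles are ranks within a list, where 100 is the strongest.

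The members crowded close to the gene limits rather than filling the window. The median midpoint was 104 bp from the nearest gene end. Of the 612 members, 293 (47.9%) lay within 100 bp and 115 (18.8%) lay between 250 and 500 bp. The midpoint fell within some gene body in 412 members and outside every gene in 200 (32.7%). A total of 432 members counted for 1 gene, 170 for 2 genes, 9 for 3 and 1 for 4. The member that counted for 4 lies at the tarsal-less genes (tal-1A, tal-2A, tal-3A and tal-AA), which share a single transcript for small peptides. Its midpoint was 477.5 bp from the gene end. The strongest summits were farther from any gene end, at 622 bp (btl), 582 bp (trh) and 1874 bp (replicate 3). In 40 members the midpoint lay outside every gene, with a gene end within 500 bp on both sides. The gap between these 2 ends had a median of 376.5 bp. Width was 356.5 bp at the median (interval 344 to 369 bp) and ranged from 59 to 1264 bp, against 423 bp for regions inside genes. In 480 members the bounds were those of the trh region, the narrowest of the 3 lists, so the trh list largely set where the midpoint fell. Across the chromosomes, the share of regions at gene ends ran from 25.2% on 2L to 31.1% on 2R, and chromosome 4 had 3 of 9.

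The summits of the 3 lists lay at different distances from the same gene ends. Members were chosen by a midpoint near a gene end, and in 480 of them the bounds were those of the trh region, so the closeness of the trh summits was in part set by the choice of members. In the trh list, 52.5% of the members' summits were at most 100 bp from a gene end (48.5 to 56.4%), with a median distance of 92 bp. In the btl list, 45.6% were (41.7 to 49.5%), with a median of 112.5 bp. In replicate 3, 20.8% were (17.7 to 24.1%), with a median of 185.5 bp. The replicate 3 summits lay farther from the limit than those of btl. Among summits within 500 bp, those outside the gene of the nearest end made up 46.4% for trh (interval 42.5 to 50.4%), 40.7% for btl (36.8 to 44.8%) and 32.5% for replicate 3 (28.7 to 36.6%). For the 293 members centred within 100 bp of a gene end, the replicate 3 summits were outside in 22.8% and, when inside, lay 119 bp deep at the median. Between lists, the summits of a member were 39.5 bp apart at the median for btl and trh, 77 bp for btl and replicate 3 and 116.5 bp for trh and replicate 3. The cause of these differences was not tested, and replicate, kit and centre cannot be told apart.

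**Figure D1:**
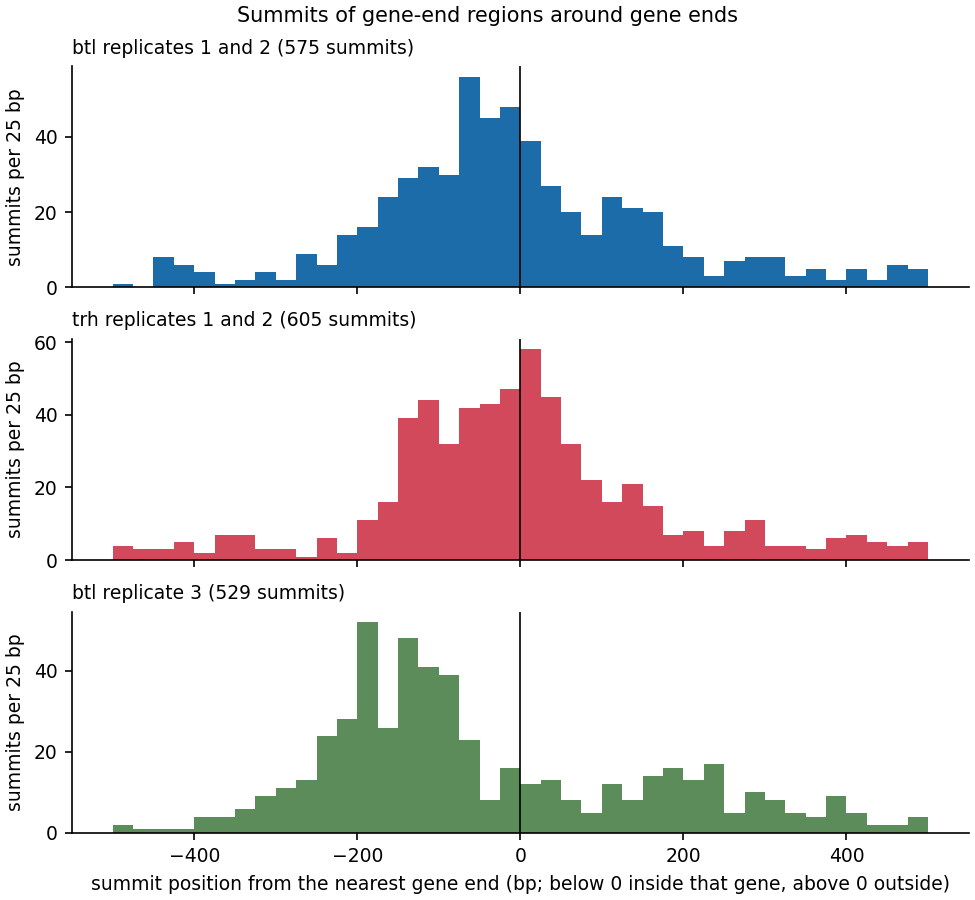
Position of the strongest summit of each parent peak relative to the nearest gene end, in bp, with bars of 25 bp giving the number of summits in each list (575 of 612 for btl, 605 for trh and 529 for btl replicate 3 lay within 500 bp). The btl and trh summits pile up around 0, whereas the replicate 3 summits are few at 0 and most frequent inside the gene.

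The summits of a member lay closer to one another than those of regions inside genes. The distance between the outermost of the 3 summits was 132.5 bp at the median (interval 118 to 144 bp), against 229.5 bp (194 to 276 bp) inside genes and 164.5 bp (127 to 233 bp) between genes. A distance above 1000 bp occurred in 50 members (8.17%), and in 24.0% of regions inside genes and 20.4% of those between genes. The parent in replicate 3 held several summits for 50.5% of members, 73.0% inside genes and 66.8% between genes. With the replicate 3 summit nearest to the midpoint in place of the strongest, the medians were 116, 132 and 107 bp, so the gap between the classes narrowed and regions between genes came lowest.

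The tightest members had their summits almost on top of one another. At Prps (3L:9696666-9697234 on Release 6, counted from 1, as for all regions below), named for phosphoribosyl pyrophosphate synthetase, the 3 summits lay within 3 bp of each other and 331 to 334 bp from the gene end. At cona (3R:18385704-18385950), a component of the synaptonemal complex, they lay within 7 bp and 1 to 8 bp from the gene end. At eIF2beta, a subunit of the factor that brings the initiator tRNA to the ribosome, they lay within 8 bp, and CG4927 had 6 bp and the CG15561 and ATPsynC region 9 bp. In total, 100 members (16.3%) had all summits within 50 bp. At the other extreme the strongest replicate 3 summit was far away, in a wide parent with many summits. The distance between the outermost summits was 4919 bp at CHES-1-like (13 replicate 3 summits), 9808 bp at CG31668 (14 summits) and 10274 bp at CG2865 (20 summits). For those members, the replicate 3 fold enrichment at the nearest summit was 3.92, 5.93 and 4.25, against 8.16, 9.74 and 5.68 at the strongest.

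By fold enrichment, gene-end regions ranked lower than the other highest-confidence regions in the lists from replicates 1 and 2. In the btl list the median fold enrichment was 2.96 at gene ends (interval 2.85 to 3.10), 3.40 inside genes (3.29 to 3.54) and 3.51 between genes (3.31 to 3.81). In the trh list it was 1.96 (1.93 to 2.00), 2.15 (2.11 to 2.18) and 2.195 (2.11 to 2.25). In replicate 3 the 3 classes had medians of 4.00, 4.08 and 4.07, with overlapping intervals. As ranks within a list, members had median percentiles of 53.6 (btl), 33.7 (trh) and 83.2 (replicate 3). Members' fold enrichment ran from 1.46 to 10.9 (btl), from 1.29 to 5.03 (trh) and from 1.51 to 11.14 (replicate 3).

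The -log10 q put the same members higher in the btl and trh lists and set the classes closer together. By -log10 q the median percentile of members was 73.3 in the btl list (interval 70.0 to 77.0), against 77.8 inside genes and 79.4 between genes. In the trh list the medians were 53.1, 51.9 and 51.7, and in replicate 3 they were 83.0, 84.0 and 82.2. In the trh and replicate 3 lists these intervals overlapped across the 3 classes. A region could therefore be modest in fold and still high in -log10 q.

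**Figure D2:**
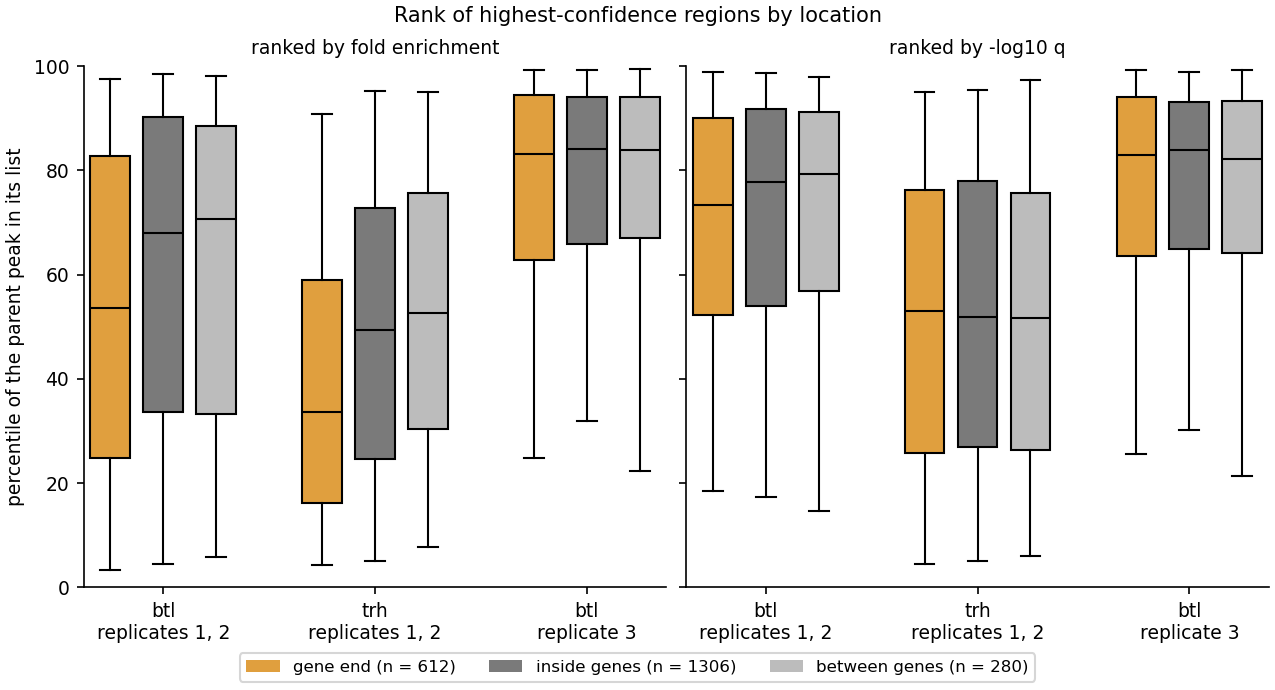
Percentile of the parent peak within its own list, by the authors' fold enrichment (left) and -log10 q (right), for the 3 classes of highest-confidence region (boxes span the quartiles with a line at the median, whiskers run from the 5th to the 95th percentile). Gene-end boxes sit lower in the btl and trh lists by fold enrichment, with medians of 53.6 and 33.7, and nearly level with the others by -log10 q.

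The choice of ranking also decided what a stricter threshold did to the share at gene ends. Requiring every parent to be in the upper 50% of its list by fold enrichment left 619 regions, of which 99 (16.0%, interval 13.3 to 19.1%) were at gene ends. Requiring the same by -log10 q left 832 regions, of which 231 (27.8%, interval 24.8 to 30.9%) were at gene ends. Under the fold threshold the share was close to the 15.1% of the arms in the windows, and under the other it stayed where it was without a threshold.

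**Figure D3:**
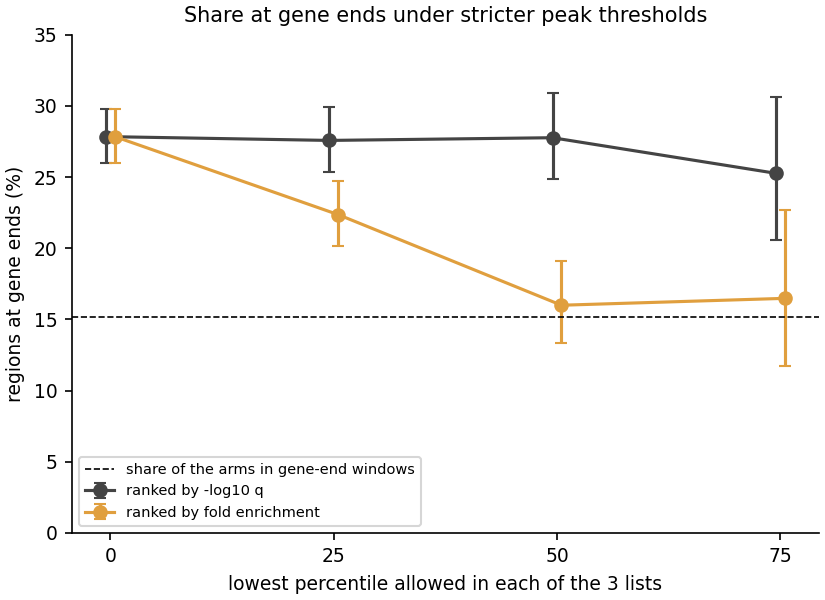
Share of highest-confidence regions at gene ends (%) when each of the 3 parent peaks must reach a given percentile of its list, with Wilson 95% intervals, and the share of the arms in gene-end windows as a dashed line at 15.1%. By fold enrichment the share goes from 27.8% with no threshold to 16.0% at the 50th percentile and 16.5% at the 75th, and by -log10 q it is 27.8% and 25.3% at these thresholds.

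The 3 lists ordered the members differently. Over the 612 members, Spearman's rho of fold enrichment was 0.38 between the btl and trh lists, 0.017 between btl and replicate 3 and -0.23 between trh and replicate 3. By -log10 q the 3 values were 0.20, 0.36 and 0.12. These are descriptions over regions that share libraries, with no p-value.

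A small group of members was high in all 3 lists, chosen here as the 12 with the highest smallest percentile. First came the region at CG7600 and CG42671 (3L:11214415-11214724), with a fold enrichment of 6.38 (btl), 3.59 (trh) and 6.98 (replicate 3), each above the 96th percentile. Next was the region at CG15099 (2R:18846152-18846798), with 6.40, 3.23 and 8.69. It lay 144 bp inside CG15099 and 383 bp from MetRS, which encodes the methionyl-tRNA synthetase. The region at CG13678 (3L:8221734-8222177) had the highest btl fold enrichment of all members, 10.9, with 3.51 and 5.004 in the other lists.

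Named genes among the other 9 had varied roles. Su(var)3-3 (3L:20230266-20230961), the histone H3K4 demethylase, had 4.91, 2.98 and 5.54. The region at p120ctn (2R:4594999-4595467), a catenin of adherens junctions, had 8.16, 3.48 and 4.57. A region that counted for Pex2, a peroxisome assembly factor, Prim1, a subunit of DNA primase, and CG7083 had 4.71, 3.04 and 8.38. The region at Ptp69D, a receptor tyrosine phosphatase of axon guidance, and CG32112 had 6.77, 2.81 and 5.77. The remaining regions were at CG42264, CG18294, CG14756, CG14572, and CG1927 with CG11815. At CG42264 the strongest replicate 3 summit was far from the other summits, and the nearest had 3.03 in place of 4.84. Of the 12 regions, 11 had their 3 summits within 114 bp, and 8 had a midpoint outside the gene of the nearest end.

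At the bottom were members weak in every list, chosen as the 5 with the lowest largest percentile. The region at osp (2L:14599348-14599571) had btl, trh and replicate 3 values of 2.19, 1.74 and 1.55. The region at RpL34a and Trmt61 had 1.77, 1.82 and 1.54, and that at RpL24 and CG16957 had 2.03, 1.85 and 1.51. Mtpbeta, a mitochondrial enzyme of fatty acid oxidation, and Mrp5, an ABC transporter, completed the group. All 5 midpoints were inside the gene of the nearest end, and 2 of the 5 were at ribosomal protein genes.

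The 612 members touched 778 of 13922 protein-coding genes, or 5.59%, which is the background for the gene lists that follow. Because 180 members counted for more than 1 gene, the genes are not independent of one another. No list has a test, and an interval that contains 5.59% leaves the list near the background. Members' genes were also longer than other genes, with a median of 4789.5 bp against 2091 bp, and 6.56% of them were under 1000 bp against 20.0% of other genes.

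Of the 88 genes for cytoplasmic ribosomal proteins, which build the ribosome of the cytosol, 15 had a gene-end region (17.0%, interval 10.6 to 26.2%). Their median length was 1344.5 bp, shorter than that of other genes. The 15 genes shared 15 regions, since 1 region, centred within RpL39 and 468.5 bp beyond RpL12, counted for both, and RpL12 had another at its other end. In 14 of the 15 regions the midpoint lay within a ribosomal protein gene, and the trh summit was at most 156 bp from a gene end, with a median of 66 bp. The btl summits were at a median of 137 bp and those of replicate 3 at 199 bp.

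These regions were low in fold enrichment. Median percentiles were 39.1, 27.3 and 68.3 for btl, trh and replicate 3, each below the median of all members. By fold enrichment, 4 of the 15 regions were in the upper 50% of the btl list and 3 in that of the trh list. None was in the upper 50% of all 3 lists. Among all 612 members these counts were 322 (52.6%), 191 (31.2%) and 99. By -log10 q, 7 of the 15 genes kept a region in the upper 50% of every list, as did 302 of 778 genes with a member. RpS10b (X:19597630-19598256) had the highest btl value of the 15, with 6.05, 2.00 and 8.43, but ranked at percentile 36.2 in the trh list. The shared region of RpL12 and RpL39 (2R:24062217-24062440) came next in the btl list, with 3.46, 2.46 and 2.17. RpL7 (2L:10200913-10201125) had 1.63, 2.29 and 3.09, and its 3 summits lay 3 to 20 bp from the gene end.

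The other ribosomal protein regions had btl fold enrichments between 1.77 and 3.27. They were at RpL4, RpL7A, RpL8, RpL24, RpL31, RpL34a, RpS3A, RpS6, RpS15Aa, RpS19a and RpS27, besides the second region of RpL12. RpL4 ranked low by its btl value of 1.80 (percentile 5.58) and higher by its trh value of 2.48 (percentile 71.7). Replicate 3 was high at RpS27 (8.52) and RpL8 (6.26), but these summits were 2155.5 and 1228 bp from the midpoint, and the nearest summits had 3.28 and 3.76. RpS6, the ribosomal protein phosphorylated in response to TOR signalling, had 2.31, 2.00 and 4.05.

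**Figure D4:**
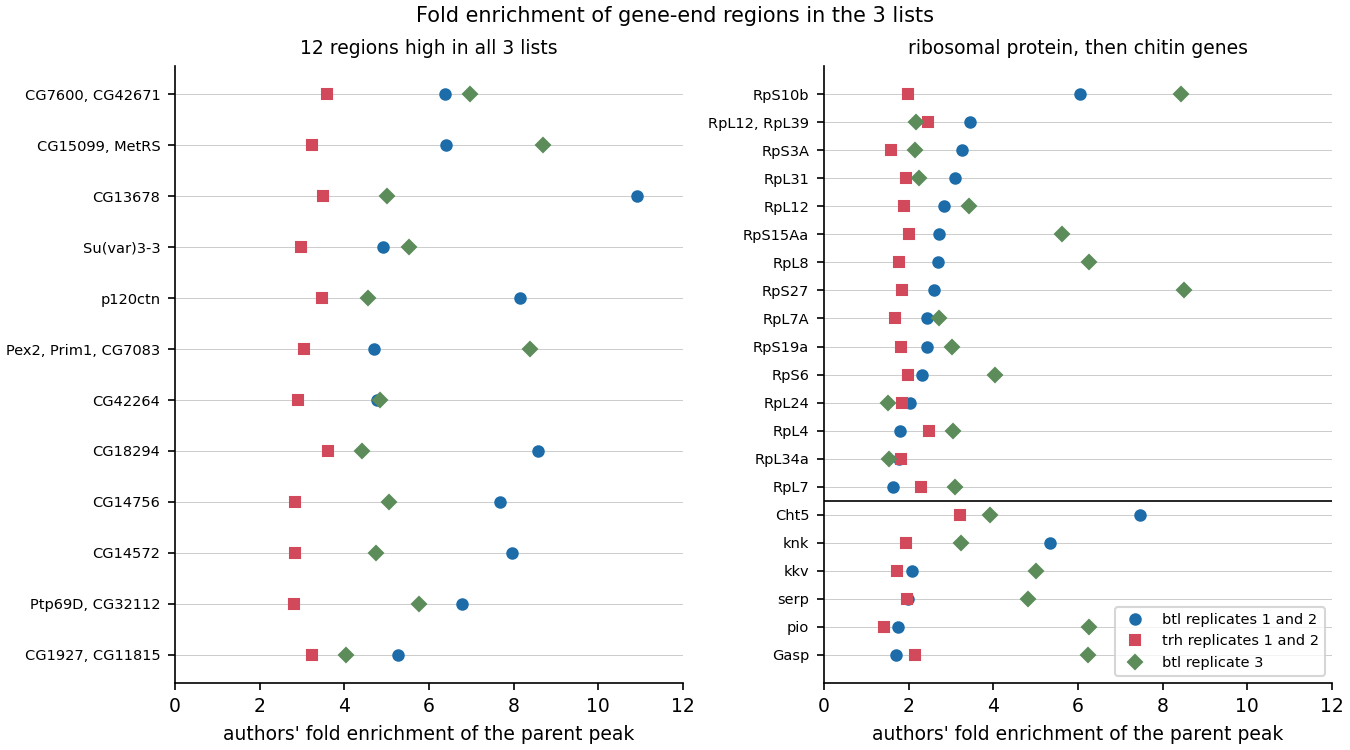
Authors' fold enrichment of the parent peaks in the btl list (circles), the trh list (squares) and btl replicate 3 (diamonds), for the 12 regions high in all lists (left) and for the regions at ribosomal protein genes, followed below the line by chitin and luminal matrix genes (right). The trh values of the ribosomal protein regions stay between 1.58 and 2.48, and RpS10b alone among them exceeds 6 in the btl list.

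Other parts of the protein synthesis machinery were touched less evenly. Translation factors had 7 of 53 genes (13.2%, interval 6.55 to 24.8%). eIF2beta had btl, trh and replicate 3 values of 3.84, 2.62 and 4.74. eRF1, the release factor that reads stop codons, had 3.46, 2.16 and 8.69. eEF1beta, an exchange factor of elongation, had 3.64, 2.79 and 3.12, though CG6426 was the nearest gene of its region. The cap-binding protein gene eIF4E1 had a member near each end, both close to the 500 bp limit (496.5 and 494 bp from these ends). Their btl values were 3.08 and 2.47, and CG4080 was nearer to the second region than eIF4E1. The other 3 were the initiation factor genes eIF3b, eIF3d1 and eIF3i.

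Mitochondrial ribosomal proteins had 1 of 73 (mRpL55, at 253.5 bp, where cdi was nearer), a share of 1.37% with an interval of 0.242 to 7.36%. Aminoacyl-tRNA synthetases had 2 of 18, MetRS and HisRS. CG15099 was nearer to the MetRS region than MetRS. The HisRS region also counted for Bx, and no gene end was nearer to its midpoint than that of HisRS. Ribosome biogenesis had 1 of 22 (4.55%, interval 0.807 to 21.8%), namely Polr1D. It encodes a subunit shared by RNA polymerases I and III and had 2.03, 1.41 and 5.27. These intervals all contain the background share.

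Growth regulators had 3 of 22 (13.6%, interval 4.75 to 33.3%), and this interval contains the background share. Thor (2L:3478061-3478708), the 4E-BP that blocks cap-dependent translation, had btl, trh and replicate 3 values of 2.79, 1.62 and 3.54. The region at foxo, a transcription factor restrained by insulin signalling, was centred 1.5 bp from the gene end and had 2.10, 1.84 and 5.87. Tsc1, an inhibitor of TOR signalling, shared its region with the nearer Sec10 and had 3.36, 2.07 and 2.07. All 3 midpoints lay outside these genes, and all 3 trh values were in the lower 50% of the list.

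Among 26 airway genes, 2 had a gene-end region (7.69%, interval 2.14 to 24.1%), a share near the background. At stumps (3R:14576927-14577474), the adaptor of the FGF receptor Breathless, the midpoint was 16.5 bp from the gene end and btl, trh and replicate 3 values were 2.97, 2.54 and 5.34. At aop (2L:2178350-2178908), the ETS repressor of EGF receptor signalling also called yan, they were 2.29, 1.57 and 4.27. Of these, stumps alone was in the upper 50% of every list. Its strongest replicate 3 summit lay 1499.5 bp from the midpoint, and the nearest had 4.67.

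No member was at rib, btl or trh. Each had highest-confidence regions inside the gene body instead, 2 at rib, 1 at btl and 2 at trh, all at least 1843.5 bp from any end of a protein-coding gene. The region inside btl (3L:14078895-14079218) had btl, trh and replicate 3 values of 7.90, 3.10 and 4.81. The region in rib nearer to an end (2R:19271677-19272166) had 3.34, 1.87 and 9.13. The other region in rib (2R:19275278-19275861) had 1.69, 1.54 and 7.69, and was below the 4th percentile in the btl and trh lists. The regions in trh had 2.92, 1.97 and 2.18 (3L:381177-381464) and 4.57, 2.46 and 2.39 (3L:387835-388062).

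Salivary gland genes had 3 of 15 (20.0%, interval 7.05 to 45.2%). The region at CrebA (3L:15535208-15535599), the bZIP activator of secretory pathway genes, was centred 8.5 bp from the gene end, with values of 2.96, 1.87 and 3.86 in the same order. Its strongest replicate 3 summit lay 2886.5 bp from the midpoint, and the nearest had 3.27. The region at Scr (3R:6822830-6823085), the Hox gene that specifies the salivary gland, had 3.03, 2.33 and 2.51. Scr was also the only homeotic or segmentation gene of 26 with a member (3.85%, interval 0.682 to 18.9%). The region at pip, a sulfotransferase, had 2.64, 2.16 and 3.19 with its 3 summits 0 to 22 bp from the gene end.

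The chitin and luminal matrix list had the highest share, 6 of 20 genes (30.0%, interval 14.5 to 51.9%), with a median gene length of 7748 bp. Cht5, a chitinase (3R:13767246-13767910), had btl, trh and replicate 3 values of 7.47, 3.22 and 3.93 and was in the upper 50% of all 3. At knk, needed to organise chitin, the midpoint was 2 bp from the gene end and the values were 5.34, 1.93 and 3.23. The other 4 were low in the btl list and high in replicate 3. kkv, the chitin synthase, had 2.08, 1.72 and 5.01. serp, a luminal chitin deacetylase, had 1.99, 1.97 and 4.82. pio, a zona pellucida protein of the tracheal lumen, had 1.75, 1.42 and 6.26, and the chitin-binding protein gene Gasp had 1.698, 2.16 and 6.24. The median percentiles of the 6 regions were 13.1, 32.2 and 91.3. Without replicate 3 as a condition the count was 7 of 20, and with every parent in the upper 50% by fold enrichment it was 1.

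**Figure D5:**
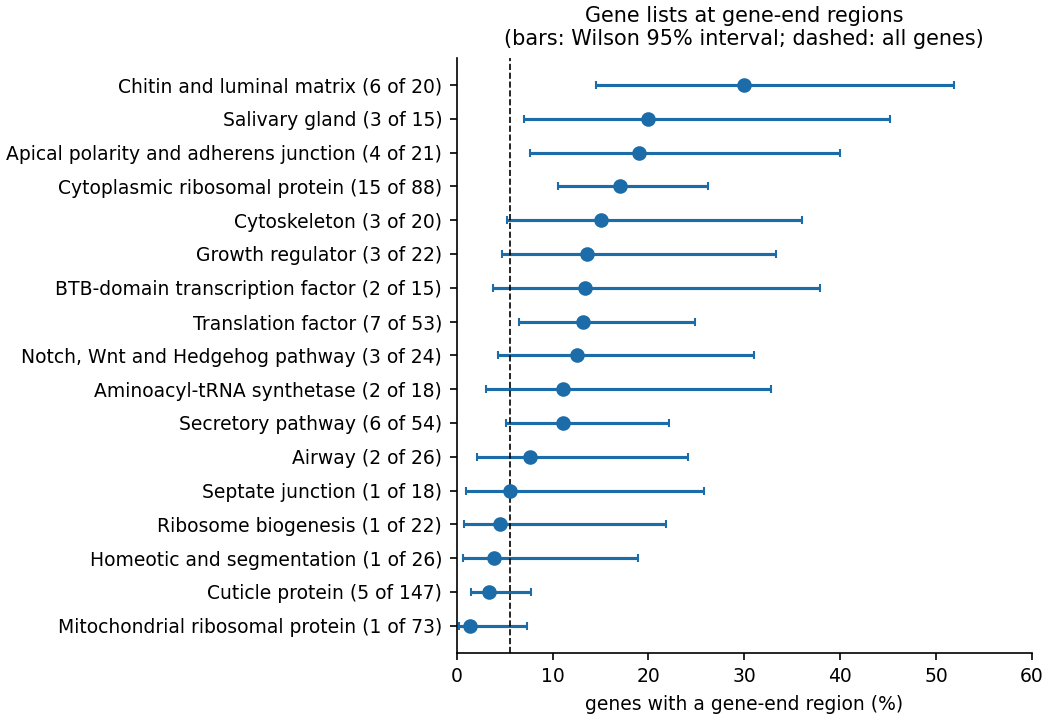
Share of the genes in each of 17 lists that had a highest-confidence gene-end region (%), with Wilson 95% intervals and a dashed line at 5.59%, the share of all protein-coding genes. The intervals of chitin and luminal matrix, salivary gland, apical polarity, cytoplasmic ribosomal protein and translation factor genes lie above the line, and mitochondrial ribosomal protein genes have the lowest share.

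Cuticle proteins form the outer chitinous layer. Their list, which also took in Osiris genes such as Osi18 and Osi19, had 5 of 147 (3.40%, interval 1.46 to 7.71%). This share was near the background, and the regions varied in strength. Cpr62Ba had btl, trh and replicate 3 values of 7.75, 3.28 and 3.43, and Osi18 had 7.33, 2.62 and 5.28. Twdlbeta had 3.96, 2.66 and 3.54, and Osi19 had 2.63, 2.22 and 3.13. Lcp9, with egg as the nearest gene of its region, had 3.36, 1.75 and 5.004. All 5 midpoints were outside these genes, and 3 of the 5 regions were in the upper 50% of every list.

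Apical polarity and adherens junction genes had 4 of 21 (19.0%, interval 7.67 to 40.0%). Besides p120ctn, kst (the beta-heavy spectrin) had btl, trh and replicate 3 values of 5.64, 1.59 and 4.66. Moe, the moesin that ties actin to the membrane, had 4.75, 1.77 and 5.55. The strongest replicate 3 summit at Moe was 709 bp from the midpoint, and the nearest had 3.77. The region at crb (3R:24294960-24295236), the apical determinant Crumbs, had 1.79, 1.55 and 5.91. Of the 4, p120ctn alone ranked high in the trh list, and the other 3 were below its 17th percentile. Septate junction genes had 1 of 18 (5.56%, interval 0.988 to 25.8%), a share near the background. It was bark, with 3.29, 2.12 and 3.82. The strongest replicate 3 summit at bark was 2579.5 bp from the midpoint, and the nearest had 3.55.

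Secretory pathway genes had 6 of 54 (11.11%, interval 5.19 to 22.2%). Tango9 had btl, trh and replicate 3 values of 6.19, 2.13 and 8.11. Sec24AB, a cargo adaptor of COPII vesicles, had 3.59, 2.16 and 5.27. Sec16, which organises ER exit sites, had 2.86, 1.77 and 3.28. Sec10 and Sec3 belong to the exocyst, and blot was nearer to the Sec3 region than Sec3. The list's symbol pattern also took in Srp54, which encodes a splicing factor in Drosophila and whose region was nearer to yip2.

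The remaining lists were small, and the interval of each contained the background of 5.59%. Cytoskeletal genes had 3 of 20 (15%, interval 5.24 to 36.0%). Their replicate 3 values were 7.19 at Act5C, 6.30 at capt and 5.82 at betaTub56D, against trh values of 1.64, 1.96 and 1.57. At Act5C the strongest btl summit was 991 bp from the gene end, outside the 500 bp window, and its value was 1.97. The strongest replicate 3 summit at Act5C was 677 bp from the midpoint, and the nearest had 5.40. Genes of the Notch, Wnt and Hedgehog pathways had 3 of 24 (12.5%, interval 4.34 to 31.0%). They were fng, a glycosyltransferase that modifies Notch, fz, a Wnt receptor, and Su(fu), an inhibitor of Hedgehog signalling. Arp1 was nearer to the Su(fu) region than Su(fu). BTB transcription factors, the family of Rib, had 2 of 15 (13.3%, interval 3.74 to 37.9%), chinmo and psq. Their btl values were 1.60 and 2.38, both in the lower 50% of that list. CG11883 was nearer to the psq region than psq, which was 376.5 bp away.

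The 3 members nearest to the edge of the 500 bp window are set here beside the 3 regions just beyond it. These are too few to describe the edge in general. The last members inside were at Hsc70-3 and Cnot4, both at 498.5 bp, and at eIF4E1 at 496.5 bp. Hsc70-3, the ER chaperone BiP, had btl, trh and replicate 3 values of 4.55, 2.70 and 2.67. The btl values at Cnot4 and eIF4E1 were 4.24 and 3.08. The first regions outside were at CG4815 (501 bp), mRpL49 (504.5 bp) and CG1806 (506 bp). Their btl values were 9.11, 2.32 and 3.78. The midpoint did not always show where the summits lay. At Cnot4 the btl and trh summits were 64 and 92 bp from a gene end. At CG1806 the btl and replicate 3 summits were 146 and 47 bp from one.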

How the data were processed

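The members and gene lists were chosen with earlier results of these data known. Per the submitters' processing notes, tools included Bowtie2 (2.3.4.1 and 2.3.4.3) and MACS2 (2.2.4), and the build was dm6. The btl and trh lists were filtered at an irreproducible discovery rate of 0.1, per the labels. The deposited fold values are the authors' linear ratio of enrichment at each summit, and the deposited -log10 values are the authors' q-values, both read from the column layout. Both were used only within a list. For highest-confidence regions only positions are given.

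Here, midpoints were compared with the ends of 13922 protein-coding genes on 2L, 2R, 3L, 3R, 4 and X, after 6 lines of replicate 3 off these arms were left out. Coordinates count from 1. Percentiles rank the strongest summit of a parent among those of all regions of its list. Shares have Wilson 95% intervals and medians have binomial order-statistic intervals. Analyses used Python 3.11.15, pandas 2.3.3 and SciPy 1.17.1, and the member rule was tested on simulated data. Genes of 17 lists were matched by symbol, and 6 names were matched by synonym instead. Of 236 listed names, 6 had no match: hdc, dys and argos of the airway list, and Tor, dp and Dl of other lists. Genes and regions were named by rank (highest smallest and lowest largest percentile, smallest and largest summit distance, distance to the 500 bp limit, most genes), by membership of the ribosomal protein, airway, salivary gland and growth lists, by up to 4 genes of each other list in order of btl fold enrichment, and at rib, btl and trh. Genes of these lists named beyond that were chosen after their values were seen. No sequence was analysed here.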

Additional observations from a re-analysis of the deposited data

How the results depend on the processing

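Results without replicates have no test, so the alternatives show only how values moved. The share at gene ends was 22.61% with a 250 bp window, 36.17% with 1000 bp and 31.48% when any part of a region counted. It was 31.94% with all genes of the table and 29.86% with a summit of every list inside the region. Under the upper 50% by fold enrichment, 99 regions (15.99%) and 134 genes were left, with 0 ribosomal protein, 1 airway and 1 chitin gene. The same threshold by -log10 q, chosen after seeing the data, left 231 regions and 302 genes, with 7 ribosomal protein, 1 airway and 2 chitin genes. Ranking by -log10 q moved the members' median percentile to 73.32 (btl) and 53.12 (trh). The replicate 3 summit nearest to the midpoint gave a percentile of 80.82 and a summit distance of 116 bp. Without replicate 3 there were 695 gene-end regions (28.77%), 883 genes, 19 ribosomal protein genes and 2 airway genes. Of 90 alternative values, 20 moved, meaning by more than 1.5 times for a count, or out of the 95% interval of the value reported for a share or median. Counts within that tolerance still shifted, as from 778 to 1099 genes with the 1000 bp window. The 25th and 75th percentile thresholds were also chosen after seeing the data. The split into gene starts and gene ends was not run, since the gene table has no strand. No paired analysis was possible because replicates 1 and 2 share 1 list per driver. Leaving out replicate 1 or 2 was not possible for the same reason.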

Other observations

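Gene-end regions of the single lists reached the other lists less often than regions inside genes. Of the gene-end regions in the btl list, 574 of 2719 (21.1%, Wilson 95% interval 19.6 to 22.7%) overlapped regions of both other lists, against 25.2% of those inside genes. In the trh list the shares were 65.4% (614 of 939, interval 62.3 to 68.4%) and 71.5%, and in replicate 3 they were 16.5% (513 of 3104, interval 15.3 to 17.9%) and 19.6%. Regions between genes had the lowest shares, 17.5%, 61.2% and 14.2%. In the btl and replicate 3 lists, gene-end regions found in all lists had a higher median fold enrichment than those that were not, 2.91 against 2.52 and 3.80 against 2.57. In the trh list they had a lower one, 1.97 against 2.23, while their median -log10 q was higher, 10.4 against 9.76.

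Gene-end regions were more isolated from other highest-confidence regions. Another such region lay within 5000 bp for 206 of 612 members (33.7%, interval 30.0 to 37.5%), against 56.7% inside genes and 51.1% between genes, and the median distance to the next was 10513.5 bp against 3209.75 and 4300.25 bp.

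A total of 25 genes had 2 members, 14 with 1 near each end and 11 with both near the same end. Among the former, the members near the ends of bun lay 91315.5 bp apart, those of osp 89755 bp, those of Hk 30941 bp and those of Not1, the scaffold of the CCR4-NOT complex, 13005 bp. In all 4 genes the 2 members came from different parent regions in every list. For the 11 genes with both at the same end, such as Sod1 (266 bp apart) and sano (481 bp apart), both members came from 1 btl region.

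Genes without a name other than a CG number made up 29.9% of the genes with a member and 44.6% of other genes.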
